A study of Mus musculus with 6 samples.

Results

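Small nucleolar RNAs (snoRNAs) are short noncoding RNAs that guide chemical modification of ribosomal and spliceosomal RNA, and most of them are not transcribed from a promoter of their own but are cut out of the introns of other genes, the host genes. The loci described here are protein-coding loci that contain such a gene. A member was a row of the deposited comparison of control with Neurod2 knockdown that had been tested by the authors' software, whose span on mm10 overlapped a protein-coding gene, and that fully contained at least 1 gene annotated by GENCODE as a snoRNA or a scaRNA (the related class of the Cajal body) and no microRNA gene. Rows whose best-overlapping gene was named Rpl or Rps and a number were left out. Ribosomal protein genes remained at the positions of Rplp2, Rpsa and Rpl5. This gave 411 of the 13498 tested rows, out of 32357 rows in all, at 294 positions. Both group values were known for 410 of them, and the remaining row, at the Eef1b2 locus, had a cell that could not be read.

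The study asked which transcripts depend on NEUROD2, a transcription factor of cortical excitatory neurons. RNA came from primary cortical cultures of Balb/c mouse embryos at E14.5, nucleofected with shRNA plasmids in the pSuperneoGFP backbone and collected after 4 days in vitro according to the labels (the study's methods give another day). Of the 6 libraries, 2 came from control cultures that received a non-silencing shRNA. The other 4 came from knockdown cultures, of which 2 carried shNeurod2-1 and 2 carried shNeurod2-2. All 6 cultures shared the strain, the age, the plating medium with N-2, B-27, Glutamax and serum, and the nucleofection itself. The labels describe no step that removed cells without plasmid. The table holds 1 pooled FPKM value (fragments per kilobase of transcript, scaled to library size) per group, so a difference between the groups could not be set against the spread between libraries, no error or test accompanies the values below, and the 2 knockdown hairpins could not be compared. How many reads lie behind a value is unknown. In bulk RNA, fewer cells of a type and less RNA per cell cannot be told apart.

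Neurod2 itself was listed at 105 FPKM in the non-silencing group and 60.3 FPKM in the knockdown group, a log2 change of -0.79. Here and below, a change is log2 of knockdown over non-silencing after 1 FPKM was added to each value, so that changes of low rows are understated, and a row is called higher or lower when it passed 1.5-fold on that scale. Of the markers of neurons, 9 of 9 had a tested row and none passed 1.5-fold, with a summed level of 1873 FPKM in the non-silencing and 1991 FPKM in the knockdown group. Of 6 astrocyte markers 4 had a row, with sums of 221 and 208 FPKM, and Gfap was lower (57.4 against 35.1 FPKM). The oligodendrocyte lineage had sums of 110 and 104 FPKM over 6 of 6 markers, and the progenitor list 104 and 95.2 FPKM over 3 of 5, with no marker past 1.5-fold. Of 6 fibroblast and mural markers 4 had a row, with sums of 3.41 and 4.69 FPKM, and Col1a1 and Col3a1 were higher, at 0.125 and 0.975 FPKM and at 0.171 and 0.765 FPKM. Inhibitory neuron markers had 2 of 5 rows and sums of 3.15 and 2.95 FPKM. No microglial marker (0 of 5) and no endothelial marker (0 of 4) had a tested row of its own. The part of these markers in the values below was not tested.

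The annotation placed 362 snoRNA and scaRNA genes inside the members. Of these, 55 carry a family name, namely 39 Snord genes of the box C/D class, which guides 2′-O-methylation, 13 Snora genes of the box H/ACA class, which guides pseudouridylation, and 3 Scarna genes. The other 307 carry only a Gm number, a provisional name given to a predicted gene. Some of them, such as Gm26457 and Gm25617, are annotated under 2 gene IDs with overlapping coordinates, and both entries were counted. The named genes lay mainly where a snoRNA is known to lie. Of the 55, 44 were in an intron of a protein-coding gene on their own strand, 2 touched an exon, and 9 had no protein-coding host on their strand, all 9 lying in a gene of a noncoding type on that strand. One of the 9 is Snora15 in Cct6a, a chaperonin subunit gene that this annotation lists as a processed transcript. Of the 307 Gm-numbered genes, 168 (54.7%) were in an intron on the host's strand, 6 touched an exon, and 132 had no protein-coding host on their strand, with 125 of these lying opposite a protein-coding gene, and 1 lay in a gene with no coding transcript. The distance from the snoRNA to the next exon downstream also differed. The median was 178 bases (quartiles 84.0 and 374) over 29 intronic Snord genes, 252 bases over 12 Snora genes, and 1862 bases over the 168 Gm-numbered ones.

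The sequences below, from the GENCODE M21 transcripts of GRCm38 (the assembly of mm10), are the named snoRNA genes at the positions with the largest differences in either direction, shown so that the RNA behind each locus can be recognised. Capitals mark box C (ATGATGA or GTGATGA, sought in the first 20 bases of the RNA strand) and box D (CTGA, sought in the last 15 bases) in the Snord genes, and the ACA near the 3′ end in the Snora genes. The positions with a higher row held the following.
Snord110 (chr2:130275506-130275573, + strand): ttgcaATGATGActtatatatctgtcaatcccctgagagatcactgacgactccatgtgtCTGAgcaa
Snord57 (chr2:130278016-130278087, + strand): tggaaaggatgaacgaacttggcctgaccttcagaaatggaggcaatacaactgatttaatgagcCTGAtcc
Snord37 (chr10:81178950-81179013, + strand): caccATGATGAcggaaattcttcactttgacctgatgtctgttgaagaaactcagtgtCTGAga
Snord69 (chr14:31014287-31014366, - strand): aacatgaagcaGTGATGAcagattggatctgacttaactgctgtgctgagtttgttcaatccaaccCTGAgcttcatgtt
Snord19 (chr14:31016206-31016281, - strand): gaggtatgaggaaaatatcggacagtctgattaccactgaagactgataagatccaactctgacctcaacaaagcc

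The positions with a lower row held the next set.
Snord92 (chr17:71631281-71631365, + strand): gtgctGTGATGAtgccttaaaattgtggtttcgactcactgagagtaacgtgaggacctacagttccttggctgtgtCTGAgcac
Snord53 (chr17:71640879-71640956, + strand): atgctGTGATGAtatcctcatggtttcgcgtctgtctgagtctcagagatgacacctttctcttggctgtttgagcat
Snord1a (chr11:116674598-116674671, + strand): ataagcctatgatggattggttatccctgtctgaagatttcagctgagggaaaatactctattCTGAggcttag
Snord1b (chr11:116674148-116674222, + strand): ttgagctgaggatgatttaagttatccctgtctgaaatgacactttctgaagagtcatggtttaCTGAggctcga
Snord1c (chr11:116672506-116672581, + strand): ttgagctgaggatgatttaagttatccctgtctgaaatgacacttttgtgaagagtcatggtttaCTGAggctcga
Snord23 (chr7:15938762-15938870, - strand): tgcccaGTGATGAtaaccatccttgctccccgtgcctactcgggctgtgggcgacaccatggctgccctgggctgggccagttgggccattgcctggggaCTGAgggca
Snord90 (chr2:37400047-37400157, - strand): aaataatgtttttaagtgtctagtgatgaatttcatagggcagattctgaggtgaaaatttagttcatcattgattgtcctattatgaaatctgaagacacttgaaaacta
Snord12 (chr2:167065276-167065365, + strand): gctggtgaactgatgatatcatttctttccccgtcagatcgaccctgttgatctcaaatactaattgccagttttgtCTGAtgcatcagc
Snora31 (chr14:75847905-75848034, + strand): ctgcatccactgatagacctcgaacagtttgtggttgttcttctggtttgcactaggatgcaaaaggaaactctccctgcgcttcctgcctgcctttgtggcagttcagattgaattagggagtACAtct
Snora5c (chr11:6620319-6620454, - strand): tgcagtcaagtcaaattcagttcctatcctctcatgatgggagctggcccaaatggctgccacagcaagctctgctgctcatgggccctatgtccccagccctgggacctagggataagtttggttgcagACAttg

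Both boxes were found by these letters in 22 of the 39 Snord genes inside members (56.4%) and in 66 of all 98 annotated Snord genes (67.3%), in 16 of the 307 Gm-numbered genes inside members (5.21%) and in 233 of all 1409 annotated Gm-numbered genes (16.5%), beside 303 of all 1558 annotated snoRNA and scaRNA genes (19.4%). The 3′ ACA stood in 13 of 13 Snora genes inside members (100%), in 40 of all 42 annotated (95.2%) and in 163 of the 307 Gm-numbered genes (53.1%), beside 690 of all 1558 annotated snoRNA and scaRNA genes (44.3%). Snord1b and Snord1c differ by 2 base changes, so that short reads may not separate these copies. Snord1a differs from Snord1b by 28 and from Snord1c by 28 changes.

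**Figure D1:**
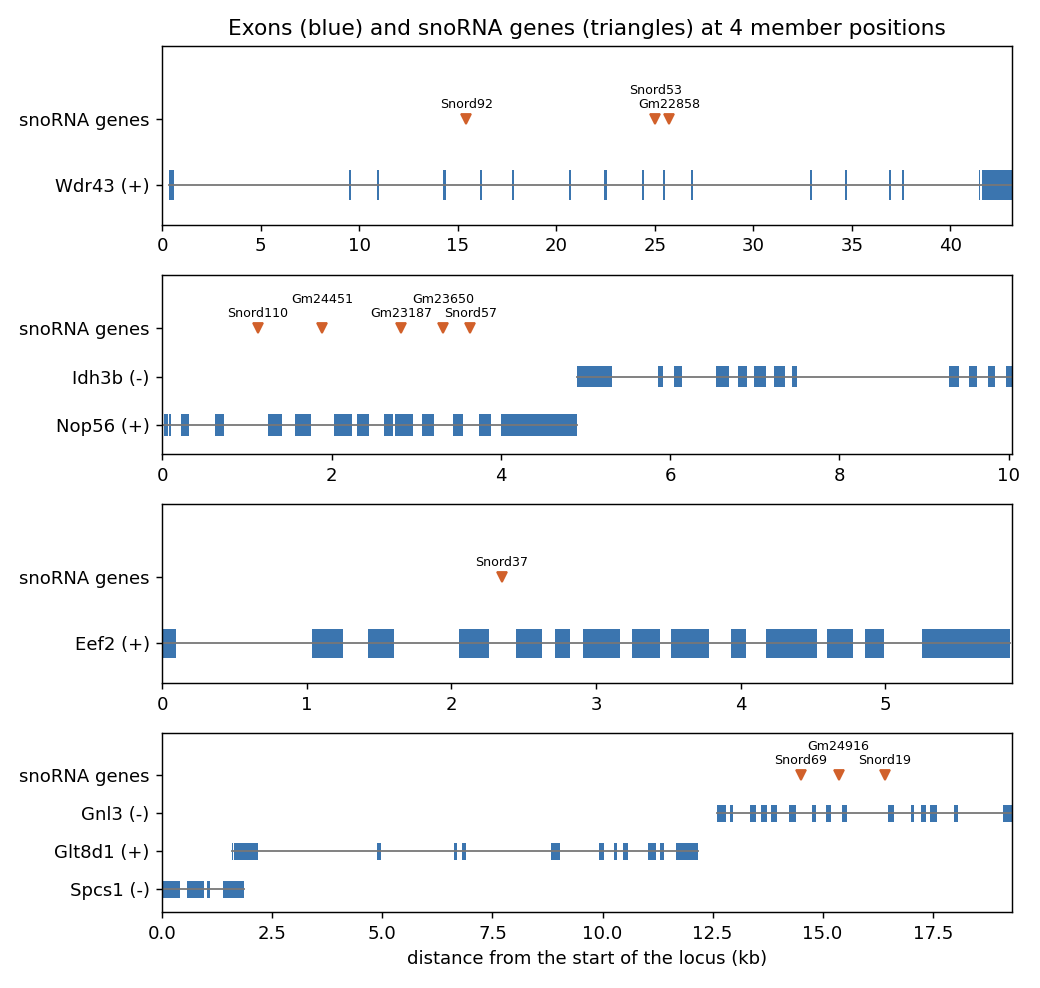
Maps of 4 member positions, with distance from the start of the locus in kb on the horizontal axis, the exons of the protein-coding transcripts as blue boxes (strand in brackets) and snoRNA genes as triangles. The 5 snoRNA genes of the Nop56-Idh3b position all lie within Nop56, and the 3 of the Gnl3-Glt8d1 position all lie within Gnl3.

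Most members differed little between the groups. The median change of the 410 members was -0.01, against -0.03 over all 13470 tested rows with both values, and their quartiles were -0.10 and 0.07. In all, 193 members were above 0 and 217 below. The count past 1.5-fold was 18 (4.39%), beside 3.13% of all tested rows. Of these, 7 were higher (1.71%, background 1.22%) and 11 lower (2.68%, background 1.91%). The split depended on low and on restored values, with 12 higher and 12 lower at a pseudocount of 0.1 FPKM, and 1 higher and 9 lower among the 253 rows whose cells had not been altered by a spreadsheet. Among 10707 tested rows at protein-coding loci with no small RNA gene inside, 123 (1.15%) passed. When the shares in those rows were weighted to the members' classes of locus length and mean level, the share was 0.859%. With the same weights and without rows listed at 0 in a group, the mean size of change was 0.11 in those rows and 0.14 in 408 members. The median size of change was 0.09 in the members and 0.09 over all tested rows.

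**Figure D2:**
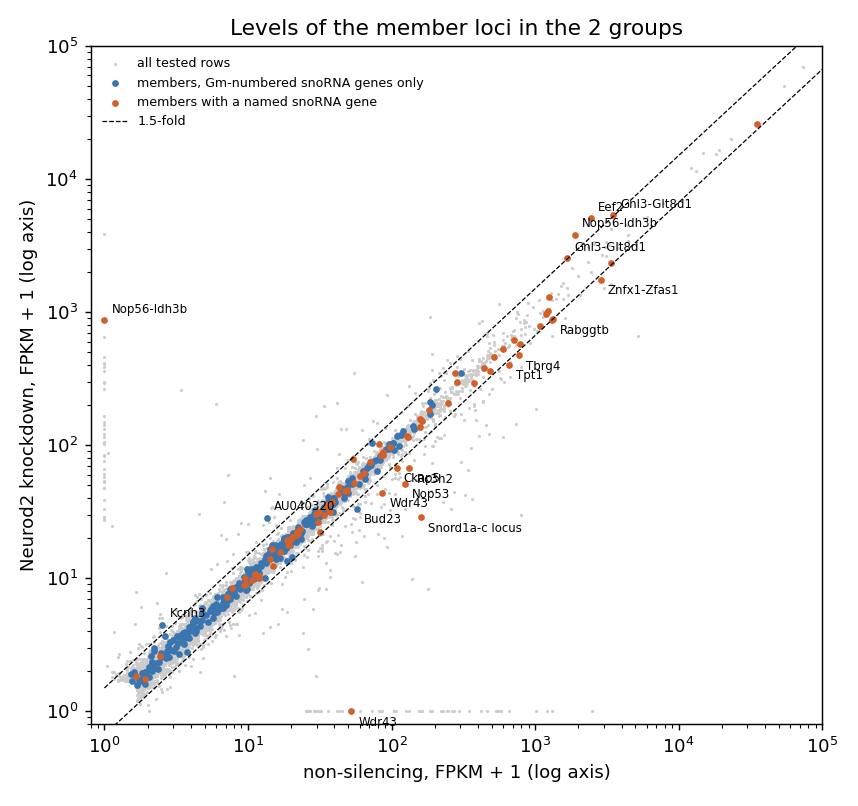
FPKM + 1 of each row in the non-silencing (horizontal) and Neurod2 knockdown group (vertical), both on log axes, for all tested rows (grey), members with a named snoRNA gene (orange) and members with Gm-numbered snoRNA genes only (blue). The 18 labelled rows lie outside the dashed 1.5-fold lines, 7 above and 11 below, and all but 3 of them are orange.

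The rows past 1.5-fold were unevenly spread over the members. Of the 87 rows with a named snoRNA gene inside, 15 (17.2%) passed, 5 higher and 10 lower, with a median change of -0.08. Of the 323 rows with Gm-numbered genes only, 3 (0.929%) passed, 2 higher and 1 lower, with a median of 0.00. The weighted share in protein-coding rows without a small RNA gene was 1.12% for the length and level classes of the former and 0.790% for those of the latter. Without rows listed at 0 in a group, the mean size of change with these weights was 0.11 for both, against 0.28 in 85 rows with a named gene and 0.11 in the others. This split by name was made after the values had been seen. The rows with a named gene were also shorter and more abundant, with a median locus length of 20.8 kb and a median level of 63.9 FPKM, against 123 kb and 13.5 FPKM. By class, 13 of 59 rows with a Snord gene passed (5 higher, 8 lower), 2 of 22 rows with a Snora gene (both lower), and none of 6 with a Scarna gene. Over all tested rows, 3.13% passed, 1.22% higher and 1.91% lower. The rows of the 3 classes lay at only 28, 12 and 3 positions, too few for a comparison of classes.

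A second split, also made after the values had been seen, followed the way in which the table lists transcripts. Several rows can carry the same coordinates. Each row carries UCSC transcript IDs, but these were not paired with gene names here. Which row holds the host transcript and which the snoRNA was therefore not known. Of the members, 186 were alone at their position and 224 shared it with at least 1 other row. None of the 186 passed 1.5-fold, their changes lying between -0.47 and 0.49. Of the 224, 18 (8.04%) passed, beside 5.32% of all 4252 tested rows that shared a position and 1.91% of the 2665 such rows at protein-coding loci with no small RNA gene. With both splits together, 15 of 82 rows with a named gene and a shared position passed (18.3%), 3 of 142 with Gm-numbered genes and a shared position (2.11%), and none of the 5 and 181 rows alone at their position. The 5 named and alone were at Rack1, Hspa8, Eif4g1, Rcc1 and Rab26, with changes from -0.16 to 0.02. Of the 82 rows with a named gene and a shared position, 49 had 1 transcript ID, and 14 of these passed (28.6%). Of the 33 with more than 1 ID, 1 passed (3.03%).

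**Figure D3:**
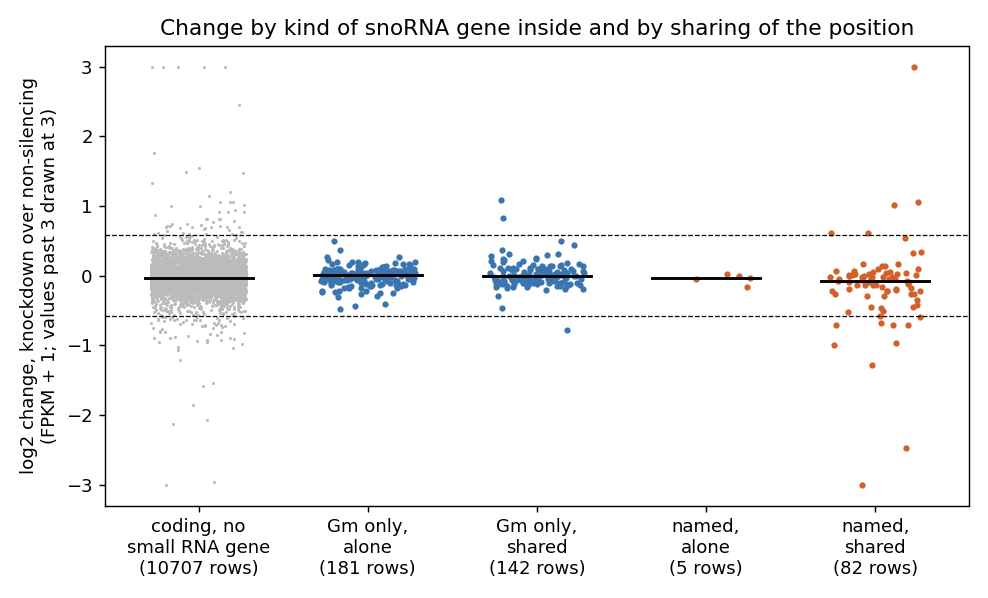
Log2 change of every row (points, values past 3 drawn at 3) in protein-coding loci with no small RNA gene (grey), in members with Gm-numbered snoRNA genes only (blue) and in members with a named one (orange), alone at or sharing their position; bars are medians and dashed lines 1.5-fold. The 82 named rows with a shared position are the most widely scattered of the 4 member classes, with 15 outside the lines.

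A further split, by level within a position, was also made after the values had been seen. At the named and shared positions, the rows past 1.5-fold were mainly those with the highest level. Of 38 such top rows, taken by the mean FPKM of both groups, 12 passed 1.5-fold (31.6%), 3 higher and 9 lower. Their median change was -0.28, and 29 were below 0 and 9 above. Of the 44 other rows at these positions 3 passed (6.82%), 2 higher and 1 lower, and their median was -0.03. The top rows had a median level of 322 FPKM and the others 26.7 FPKM. At shared positions of protein-coding loci without a small RNA gene, 23 of 1654 top rows passed (1.39%) and 28 of 1011 others (2.77%). At the Gm-numbered positions it was 1 of 70 top rows and 2 of 72 others. Untested rows also count as sharing a position, so some top rows had no other row with tested and known values beside them. The other rows lay at 33 named positions, 875 positions without a small RNA gene and 34 Gm-numbered positions. Top and other rows are thus not a full comparison within positions. Of the 33 named positions with more than 1 member row, 11 had a row past 1.5-fold, and at none of the 33 did every row pass.

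The 7 higher rows came from 5 positions, and all but the row listed at 0 in the non-silencing group rest on restored cells. Nop56, a core protein of the box C/D particle, shares its position (chromosome 2, 130274412 to 130284451) with Idh3b, a subunit of a mitochondrial dehydrogenase. One row there went from 1891 FPKM in the non-silencing to 3817 FPKM in the knockdown group, a change of 1.01, and another was listed at 0 in the non-silencing group and at 867 FPKM in the knockdown group, for which no fold is given. The other rows of that position were at 34.6 and 34.3 FPKM, and at 47.9 and 44.5 FPKM. Thus 2 of the 4 rows at 1 position were higher, while the others stayed within 1.5-fold.

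Eef2, the elongation factor that moves the ribosome along the mRNA, holds Snord37 in an intron 67 bases before the next exon. Its position (chromosome 10, 81176631 to 81182509) had a row at 2440 FPKM in the non-silencing and 5102 FPKM in the knockdown group, 2.09-fold higher. The second row, made of 2 transcripts, was at 707 and 619 FPKM, a change of -0.19. Only the former passed 1.5-fold.

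Gnl3, a nucleolar GTPase also called nucleostemin, lies beside Glt8d1 and Spcs1 (chromosome 14, 30999826 to 31019131) and holds Snord19 and Snord69. Both rows of a single transcript were higher, from 1666 to 2556 FPKM (change 0.62) and from 3486 to 5331 FPKM (change 0.61). The other 3 rows were at 63.0 and 61.1, 22.1 and 22.6, and 13.1 and 13.0 FPKM, with changes between -0.04 and 0.04. The remaining higher rows were at positions with Gm-numbered genes only. At AU040320 a row of 3 transcripts went from 12.5 to 27.6 FPKM (change 1.09), and at the position that overlaps Kcnh3, a potassium channel gene, a row went from 1.53 to 3.48 FPKM (change 0.82).

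The 11 lower rows came from 10 positions. Among these rows, the largest difference with both groups above 0 was at the position of Snord1a, Snord1b and Snord1c (chromosome 11, 116671660 to 116675798). It overlaps the protein-coding St6galnac2 only at its edge, and the 3 snoRNA genes lie in the noncoding gene 1810032O08Rik. Its main row was at 159 FPKM in the non-silencing and 27.7 FPKM in the knockdown group, 5.74-fold lower, while the row of 4 transcripts was at 10.98 and 8.98 FPKM. Wdr43, a protein of ribosome assembly, had 3 rows at its position (chromosome 17, 71615895 to 71659031). One was at 84.7 and 43.04 FPKM (1.97-fold lower), 1 was listed at 51.6 FPKM in the non-silencing group and at 0 in the knockdown group, and 1 was at 21.1 and 20.4 FPKM.

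Nop53, a ribosome biogenesis factor and the host of Snord23, had a row at 123 FPKM in the non-silencing and 50.1 FPKM in the knockdown group (2.45-fold lower) beside a row at 32.7 and 29.0 FPKM. Rc3h2, an RNA-binding ubiquitin ligase that holds Snord90, had a row at 132 and 65.9 FPKM (2.00-fold lower), while its second row was within 1.5-fold, at 42.3 and 47.5 FPKM. At Ckap5, a microtubule-associated protein gene with Snord67, a row at 107 and 66.8 FPKM (1.61-fold lower) stood beside one at 69.7 and 74.4 FPKM. At these 3 positions only the row of a single transcript passed 1.5-fold.

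The other lower rows had changes between -0.59 and -0.78. At Tpt1, which encodes the translationally controlled tumour protein and holds Snora31, the rows were at 652 and 399 FPKM, and at 29.8 and 25.5 FPKM. At Tbrg4, a regulator of mitochondrial RNA that holds Snora5c, they were at 770 and 472 FPKM, and at 9.67 and 8.69 FPKM. At Znfx1 the lower row went from 2860 to 1756 FPKM. The snoRNA genes there, Snord12, Gm23201 and Gm25878, lie not in Znfx1 but in the neighbouring noncoding gene Zfas1. The other rows had changes of -0.22 and -0.09. Bud23, a methyltransferase of ribosomal RNA with the Gm-numbered scaRNA gene Gm25492, shares its position with Dnajc30. The rows there were at 56.1 and 32.2 FPKM and at 9.80 and 9.22 FPKM. Rabggtb, a subunit of the Rab prenylating enzyme with Snord45b and Snord45c, had 1 tested row, at 1324 and 880 FPKM. Its change of -0.59 was the smallest of the 18.

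**Figure D4:**
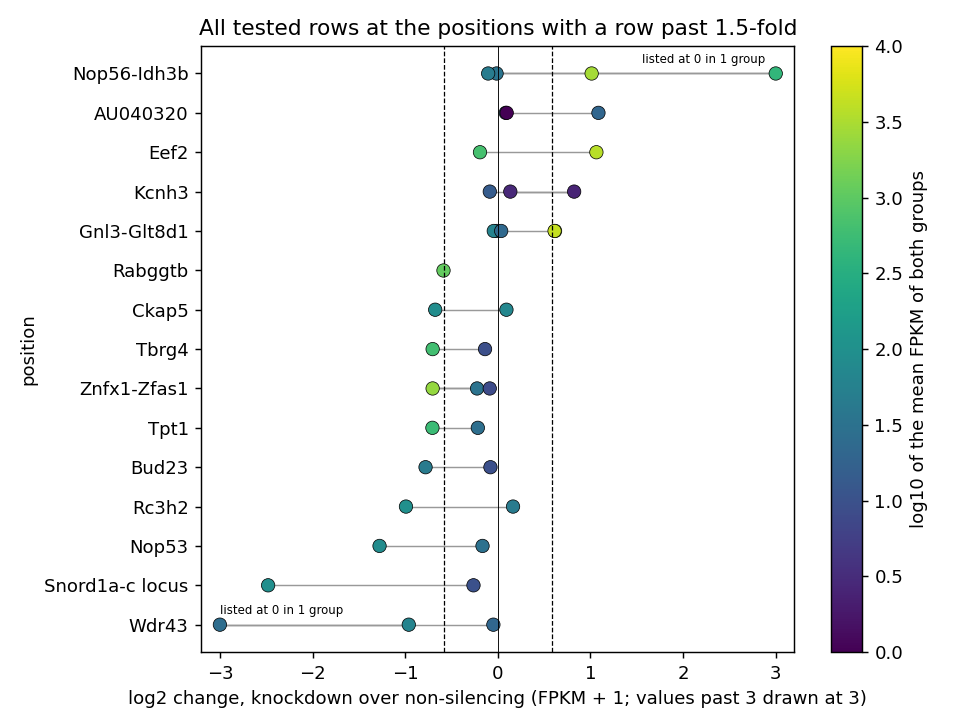
All tested rows at the 15 positions with a member row past 1.5-fold, by log2 change (horizontal axis, values past 3 drawn at 3, dashed lines 1.5-fold); each line joins the rows of 1 position and colour gives log10 of the mean FPKM. At 14 positions at least 1 row lies within the dashed lines beside the row or rows outside them, and Rabggtb has a single tested row.

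Among the most abundant members, the top row was at Ncapd2, a condensin subunit with Scarna10 in an intron, at 35276 FPKM in the non-silencing and 25828 FPKM in the knockdown group (change -0.45). Then came the Gnl3, Eef2, Nop56 and Znfx1 rows given above and Rbmx, an RNA-binding protein gene with Snord61, at 3361 and 2347 FPKM (change -0.52). Atg16l1, an autophagy gene with Scarna6, was at 1240 and 1299 FPKM (change 0.07), and Snx5, a sorting nexin gene with Snord17, at 1238 and 1013 FPKM (change -0.29). The other row at Ncapd2 was at 18.3 and 16.7 FPKM, at Rbmx at 86.4 and 87.4 FPKM, and at Snx5 at 28.6 and 29.3 FPKM. At Atg16l1 the other row had a change of 0.05. The 10 rows of highest level all held a named snoRNA gene, and 6 of them passed 1.5-fold, beside 3.13% of all tested rows. Of the 6, 2 were at the Gnl3 position. FPKM is scaled by transcript length, and the transcript lengths behind these rows are not known. Such a level may thus be that of a short RNA at the position and not that of the host mRNA.

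The positions with at least 4 snoRNA genes inside were Nop56-Idh3b with 5, and Nop58 and 2410002F23Rik with 4 each. Nop58, the partner of Nop56 in the box C/D particle, was at 48.0 and 45.4 FPKM. The rows of 2410002F23Rik, with Snord88a and Snord88c, were at 248 and 206 FPKM and at 46.4 and 44.2 FPKM, and none passed 1.5-fold. Of the 36 rows with 3 or more snoRNA genes 9 passed, against 2 of 41 with 2 and 7 of 333 with 1. A gene annotated under 2 IDs counted as 2 there, and Eef1b2 and Gsk3b are among the 36 only through such a repeat. The share over all tested rows was 3.13%. The 36 rows lay at 19 positions, and Nop56, Gnl3 and Wdr43 gave 2 each of the 9. All 9 held a named snoRNA gene. Whether the number of genes inside mattered apart from the split by name was not tested. The protocadherin gene cluster on chromosome 18 gave 25 member rows at a single position, with changes between -0.18 and 0.36.

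The rows were also grouped by the role of the gene that names them, which for 22 of the 107 listed rows is an overlapping gene with no snoRNA gene on its own strand. Among all members, 131 rows lay at loci that overlap more than 1 protein-coding gene, so a row may belong to another gene than the one that names it. A row at a shared position may also be that of a snoRNA and not of the host mRNA. Of 20 rows of ribosome biogenesis and the nucleolus, 17 of which held a named snoRNA gene, 7 passed (4 higher, 3 lower), beside 3.13% of all tested rows. They were at Nop56, Gnl3, Wdr43 and Nop53, and the median of the 20 was -0.03. The 20 rows lay at 8 positions, and those of Nop56, Gnl3 and Dkc1 overlap other protein-coding genes too. Of 15 translation rows 2 passed, 1 at Eef2 and 1 at Tpt1, and the median was -0.16. Rack1, a ribosome-bound scaffold protein gene with Snord95 and Snord96a, was at 595 and 531 FPKM. At Eif5, an initiation factor gene, the rows were at 517 and 455 FPKM and at 97.1 and 96.7 FPKM. The ribosomal protein genes among the members are on no role list, and none of their rows passed. Rplp2 was at 1186 and 966 FPKM in the non-silencing and knockdown group and at 157 and 136 FPKM, and Rpsa at 52.9 and 77.8 FPKM and at 13.8 and 11.4 FPKM. The position of Rpl5 overlaps Fam69a best, and the rows there were at 13.7 and 15.5 FPKM and at 10.12 and 9.82 FPKM. Of 10 rows of mitochondrial proteins 1 passed, at Tbrg4, while Atp5c1, an ATP synthase subunit gene, was at 140 and 139 FPKM, Slc25a3, the phosphate carrier, at 115 and 119 FPKM, and Cs, citrate synthase, at 90.2 and 92.7 FPKM.

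In the other lists no row passed. The 19 rows of splicing, RNA binding and RNA decay had a median of 0.00. At Sf3b3, a splicing factor subunit gene whose position also overlaps Cog4, the rows were at 286 and 297, 130 and 113, and 15.8 and 14.8 FPKM. Among 13 rows of transcription and chromatin, with a median of -0.01, the most abundant was at Chd8, at 1088 and 790 FPKM (change -0.46). Chd8 is a chromatin remodeller gene with Snord8, and its other rows were at 18.9 and 18.7 FPKM and at 0.664 and 0.839 FPKM. Chd3, another remodeller gene, was at 101 and 104 FPKM. The 21 rows of vesicle transport had a median of -0.02. At Ap1g1, a subunit gene of a clathrin adaptor, the rows were at 481 and 359, 33.9 and 33.5, and 0.914 and 0.752 FPKM. Ap2b1, of another adaptor, was at 74.7 and 75.5 FPKM. Of 6 nuclear transport rows the most abundant was at Ipo7, an importin, at 274 and 348 FPKM (change 0.34), with a second row at 82.8 and 83.9 FPKM. The 3 chaperone rows were at Tcp1 (157 and 156 FPKM), Hspa9 (102 and 90.6 FPKM) and Hspa8 (59.3 and 57.5 FPKM). Of the 303 rows on none of these lists 8 passed, 2 higher and 6 lower.

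**Figure D5:**
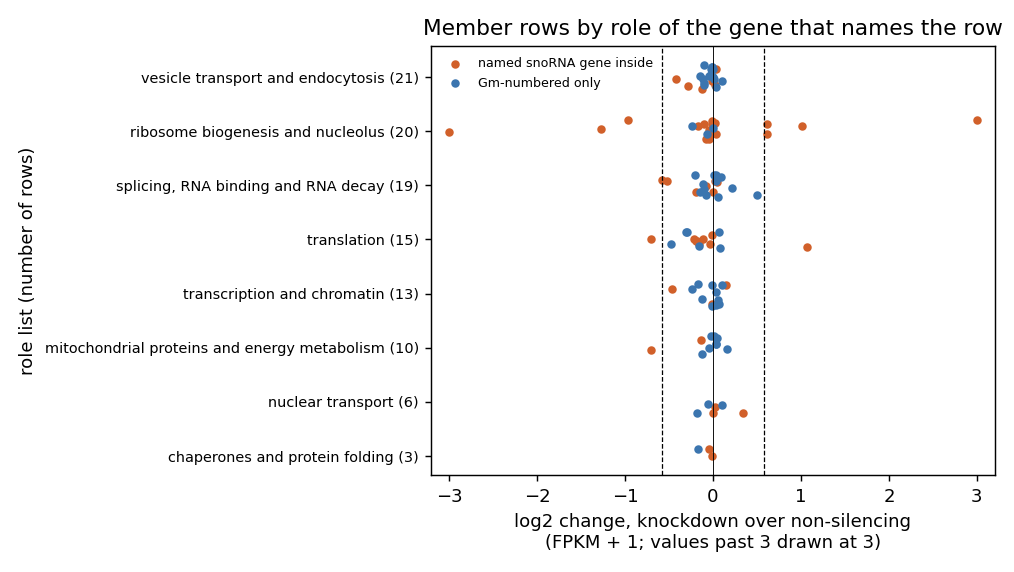
Log2 change of the member rows (horizontal axis, values past 3 drawn at 3, dashed lines 1.5-fold) by the role list of the gene that names the row, with orange for rows with a named snoRNA gene and blue for Gm-numbered ones only. Ribosome biogenesis and nucleolus has 7 of 20 rows outside the lines, translation 2 of 15 and mitochondrial proteins 1 of 10.

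The genes that make snoRNA particles and those of nonsense-mediated decay, the pathway that degrades the spliced transcripts of many noncoding hosts, were read from loci that overlap 1 gene by at least 0.5 of their union. In the box C/D core, Fbl, the methyltransferase, was at 2.92 and 2.75 FPKM, Nop58 at 48.0 and 45.4 FPKM and Snu13 at 9.71 and 8.94 FPKM. Nop56 had no such locus and is given above. In the box H/ACA core, Nop10 was at 114 and 109 FPKM and Gar1 at 5.39 and 4.59 FPKM, and Dkc1 and Nhp2 had no row in this reading. Dkc1, the pseudouridine synthase, is itself a member with a Gm-numbered snoRNA gene. Its position also overlaps Mpp1, and the rows there were at 11.402 and 11.39 FPKM and at 5.27 and 4.97 FPKM. Of 16 genes of particle assembly, maturation and localization none passed 1.5-fold, with changes from -0.41, at Smn1, to 0.21, at Shq1. Of 12 rows for the 10 genes of nonsense-mediated decay 1 passed, a minor row of Smg6 at 0.267 and 1.70 FPKM, whose other row was at 9.98 and 9.37 FPKM. Smg1, the kinase of that pathway and a member with a Gm-numbered snoRNA gene, was at 23.98 and 24.7 FPKM.

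Other kinds of locus with a small RNA gene inside also had a larger share past 1.5-fold than protein-coding loci without one. Of 28 noncoding rows with a snoRNA gene 6 passed (21.4%, 1 higher and 5 lower), of 38 rows named for an Rpl or Rps gene with a snoRNA gene 11 (28.9%, 4 higher and 7 lower), and of 1346 rows with a microRNA gene 197 (14.6%, 68 higher and 129 lower). With pooled values a test of these differences between kinds of locus was not made.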

How the data were processed

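RNA from 6 cortical cultures (2 non-silencing, 4 Neurod2 knockdown) was sequenced by the authors as 50 bp single-end reads on an Illumina HiSeq. The authors used TopHat, Cufflinks and Cuffdiff on mm10, as the submitters' processing notes name them; their versions, their settings and any use of strand are not given in those sources. In the deposited table each group has a single FPKM, which the authors pooled over libraries. It also holds the authors' log2 fold change, test statistic, p-value, q-value and a significance mark, which were not used, except that the log2 fold change (a ratio of the deposited values) served to restore cells that a spreadsheet had turned into times: a pair of FPKM values was kept where its log2 ratio met the deposited one within 2e-05. This restored 4877 tested rows and left 28 open; 157 of the 411 members were restored.

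Rows were annotated with GENCODE M21 (GRCm38). Starts were raised by 1 to count from 1. A row was named by the coding host of its snoRNA gene on the same strand, otherwise by the protein-coding gene with the highest overlap over union. At the position shared by Fam69a and Rpl5 the best overlap is Fam69a, so its rows stayed members. Calls used log2(FPKM + 1) and 1.5-fold. Length classes had limits of 5, 10, 20, 40 and 80 kb and level classes 1, 3, 10, 30 and 100 FPKM. Python 3.11.15, pandas 2.3.3 and numpy 2.4.6 were used, and the restoring and weighting steps were tested on simulated data. The members and lists were chosen with earlier results of these data known. Named rows were Neurod2, every member past 1.5-fold, the 10 members of highest level, members with at least 4 snoRNA genes, up to 4 rows of highest level per role list, and the snoRNA particle core; those of the other lists that are named (Smn1, Shq1, Smg1, Smg6), the ribosomal protein genes, Dkc1, Snora15 and the rows named and alone at their position were chosen after their values were seen. Another 150 rows met the annotation rule but had not been tested and were not analysed here.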

Additional observations from a re-analysis of the deposited data

How the results depend on the processing

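The count of 18 members past 1.5-fold was within 1.5 times under most alternatives: 24 without a pseudocount or with 0.1 FPKM (12 higher and 12 lower in both), 17 after subtracting the median of all tested rows, 14 with a snoRNA gene on the strand of a coding gene around it, 16 with an overlap of at least 0.5 of the union and 18 at a mean of at least 1 FPKM. It was 7 at a fold limit of 2, 0 among rows alone at their position, 29 with Rpl and Rps genes kept, 35 with microRNA loci kept and 10 among the 253 rows stored as plain numbers, of which 1 was higher and 9 lower, so that 6 of the 7 higher rows rest on restored cells. These counts come from sets of different size, and the main count was 4.39% of 410 rows. The 14 were 5.62% of 249 rows, the 16 were 4.20% of 381, and the 18 at 1 FPKM were 4.59% of 392. The 29 were 6.47% of 448, the 35 were 6.70% of 522, and the 10 were 3.95% of 253. The median change of -0.01 became 0.017 after subtracting the median of all tested rows, -0.03, and -0.079 for rows with a named snoRNA gene, an alternative chosen after seeing the data. The share in protein-coding loci of the same length and level, 0.859%, was 0.925% with length classes only and 1.15% with level classes only. Of the single rows, Rabggtb moved within the limit when the median was subtracted, at -0.56, and no row changed direction. Leaving out the protocadherin position, also chosen after seeing the data, gave 18.

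No paired analysis was possible because the table holds 1 pooled value per group, and for the same reason the planned fits without each replicate were not run. Read depth is unknown, so the counting error of low rows cannot be given.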
